A study of Mus musculus with 4 samples.

Results

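The cadherin superfamily genes of the mouse brain were followed here across 4 spatial transcriptomic sections from mice heterozygous for the neurofibromatosis gene, *Nf1*+/-. Members were the genes whose symbols begin with Cdh and a digit, Pcdh or Celsr, apart from *Cdh5* and *Pcdh15*, that held at least 30 unique molecular identifiers (UMIs, each standing for 1 captured transcript) over the 4 sections. This rule kept 51 of 93 such symbols among 32285 genes. *Cdh1*, with 30 UMIs, lay just inside it and *Pcdhga12*, with 27 UMIs, just outside. The members comprised 4 type I and 12 type II classic cadherins, *Cdh13* and *Cdh23*, 3 *Celsr* genes, 4 delta-1 and 5 delta-2 protocadherins, *Pcdh20*, and 20 clustered protocadherins of the beta cluster.

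Every section came from fresh frozen brain and carried the same genotype. Neither a wild-type section nor a treatment was among them, so the comparisons below are between regions of the same sections and say nothing about *Nf1*. How many mice gave the 4 sections is not stated in the labels. The p-values therefore measure how much the differences between regions varied from section to section, which may be technical.

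Classic cadherins are calcium-dependent adhesion proteins that bind mostly to cadherins of the same type on a neighbouring cell and are anchored to actin through catenins. In the forebrain, different type II cadherins are known to mark different areas, layers and nuclei. The Celsr proteins are large multipass cadherins of the planar polarity pathway that guide axon tracts and neuronal migration. Delta protocadherins are encoded by single, scattered genes and take part in axon growth and synapse formation, whereas the clustered protocadherins are encoded by tandem exons from which each neuron uses its own small set, giving it a surface identity.

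Between 1431 and 2358 spots per section held at least 500 UMIs, with a median of 8863 to 15297 UMIs per spot. Member genes took 0.079 to 0.088% of all UMIs, a median of 7 to 13 UMIs per spot, so levels were read from UMIs summed over spots and given as counts per 1000000 UMIs (CPM). Pairs of sections shared 427 to 1989 spot barcodes, which are set by slide position, but no identical spot profile was found among the first 300 compared per pair. Each spot covers a small area that can hold several cells, and fewer cells of a type cannot be told apart from less RNA per cell.

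Spots were assigned to regions by marker genes that included no member. Upper-layer cortex (918 spots), deep-layer cortex (907 spots), striatum (2248 spots) and white matter (311 spots) were present in all 4 sections. Choroid plexus reached 20 spots in sections 1 and 4 only, with 33 and 28 spots, and 2593 spots were assigned to no region. Genes not used for the assignment set cortex apart from striatum. *Slc17a7*, the cortical glutamate transporter gene, stood at 714 ± 97.8 CPM in upper and 979 ± 85.8 CPM in deep cortex. In striatum it stood at 87.4 ± 18.2 CPM (SD, n = 4 sections), and *Adcy5* at 490 ± 34.8 CPM. Neither gene checks the split between the cortical layers, or the labels of white matter and choroid plexus. *Tle4* and *Foxp2*, which mark deep cortical layers, were however higher in striatum (82.8 ± 4.83 and 42.8 ± 5.35 CPM) than in the deep cortex spots (60.2 ± 6.95 and 19.6 ± 4.16 CPM).

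A further 329 spots were assigned by a list meant for the hypothalamus, but the data went against that name. *Six6* averaged 0.210 CPM and *Sim1* 0.105 CPM in them, whereas *Baiap3* reached 160 ± 45.1 CPM and *Resp18* 859 ± 114 CPM, beside 145 ± 67.6 CPM of *Zic1*. They are called *Baiap3*/*Resp18* spots here.

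Regional level was tested with edgeR on UMIs summed per section and region, with section as a block, and a member was called at an adjusted p under 0.05. Of the 51 members, 40 passed the filter on low counts, a filter that keeps a gene when it is high in some region. Of these, 32 differed between the 6 regions, where 67.3% of all genes tested did. The members that moved by region did so in different directions, and no region held the highest level of most of them. Among the 28 members with at least 500 UMIs, 8 were highest in *Baiap3*/*Resp18* spots, 7 in striatum, 6 in deep cortex, 3 in upper cortex and 4 in white matter, judged by the mean over sections, and 15 were lowest in white matter. This order covers the 5 regions present in all sections and leaves out choroid plexus, where for example *Pcdh10* was lower (39.5 ± 0.862 CPM, n = 2) than in white matter (84.6 ± 15.3 CPM). The same region was highest in all 4 sections for 7 of the 28.

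**Figure D1:**
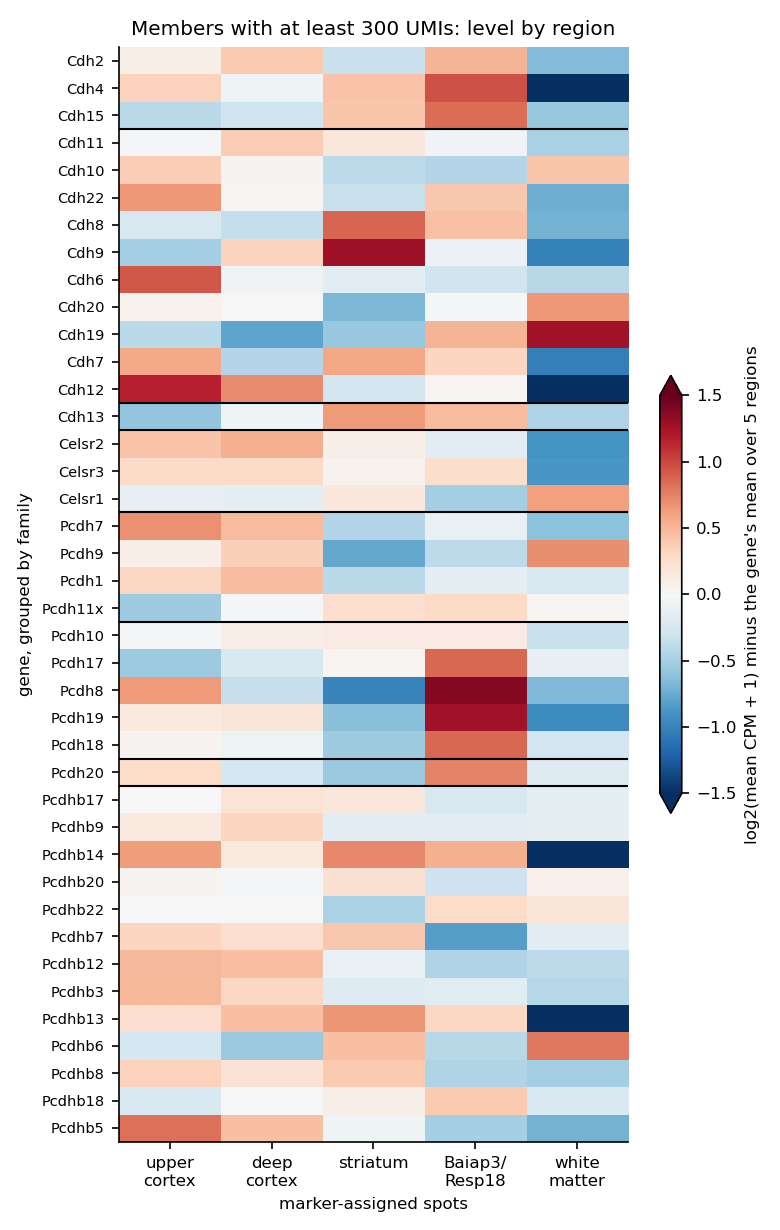
Levels of the members with at least 300 UMIs (rows, grouped by family) in 5 kinds of marker-assigned spots (columns). The colour is log2(mean CPM + 1) over 4 sections minus the gene's mean over the 5 regions, and values beyond 1.5 on either side are drawn at the end of the scale. *Cdh6* peaks in upper cortex, *Cdh8* and *Cdh9* in striatum and *Cdh19* in white matter, and the delta-2 protocadherins *Pcdh8*, *Pcdh17*, *Pcdh18* and *Pcdh19* are highest in *Baiap3*/*Resp18* spots.

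Pairs of members with the most similar profile over the 6 regions were *Pcdh8* with *Pcdh20* (Pearson's r = 0.98), *Cdh10* with *Pcdhb9* (r = 0.97) and *Cdh15* with *Pcdh17* (r = 0.96). The most opposed were *Cdh19* with *Celsr2* (r = -0.95), *Cdh19* with *Cdh11* (r = -0.92) and *Pcdh20* with *Pcdhb17* (r = -0.88). These values describe 378 pairs of 28 genes over 6 regional means from the same libraries. Among the 6 means was that of choroid plexus, from 2 sections only, where *Cdh10* was far lower than elsewhere (log2 difference -3.78). Among the regions present in all sections, *Cdh10* was highest in white matter and *Pcdhb9* in deep cortex, so their r leans on choroid plexus. *Pcdh8*, *Pcdh17*, *Pcdh20* and *Pcdh9* lie in that order on chromosome 14 within 14.1 Mb.

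For the 2 similar pairs whose RefSeq start site is the outer edge of the gene, the 150 bases before the start site are shown, 5′ to 3′ on the gene's strand in build GRCm38.p6, so that the sequence in front of genes that moved together can be compared. Capitals mark 4 motifs searched on both strands, where a match on the opposite strand appears as the reverse complement. The GC box was spelled GGGCGG and the TATA box TATAAA. The CCAAT box was searched by the letters of its name. The E box was spelled CAGCTG, and no motif overlapped another in these windows.
*Pcdh8*, chr14:79771313-79771462, minus strand: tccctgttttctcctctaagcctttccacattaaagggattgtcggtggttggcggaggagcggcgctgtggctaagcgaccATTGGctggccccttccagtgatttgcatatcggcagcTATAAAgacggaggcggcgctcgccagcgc
*Pcdh20*, chr14:88471397-88471546, minus strand: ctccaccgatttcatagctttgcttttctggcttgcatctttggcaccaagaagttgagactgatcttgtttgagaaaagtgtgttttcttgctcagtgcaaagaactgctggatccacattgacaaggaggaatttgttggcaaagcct
*Cdh15*, chr8:122848224-122848373, plus strand: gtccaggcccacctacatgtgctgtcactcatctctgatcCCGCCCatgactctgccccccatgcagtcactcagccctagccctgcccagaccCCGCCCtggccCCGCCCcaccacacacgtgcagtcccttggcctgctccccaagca
*Pcdh17*, chr14:84443413-84443562, plus strand: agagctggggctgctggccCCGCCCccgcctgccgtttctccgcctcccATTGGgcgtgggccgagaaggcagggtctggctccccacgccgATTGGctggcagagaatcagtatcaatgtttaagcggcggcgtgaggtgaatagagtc
The window of *Pcdh8* held a TATA box and a CCAAT box, that of *Pcdh20* none of the 4 motifs, that of *Cdh15* GC boxes, and that of *Pcdh17* a GC box and CCAAT boxes. Neither pair shared its full set of motifs. Their GC content was 58.0, 43.3, 66.7 and 64.7%, against a median of 54.0% over all windows. Of 22 members with such a window, 8 held a GC box in any of their windows, 11 a CCAAT box, 2 an E box and 1 a TATA box. The shares among all 32851 windows were 28.6, 24.5, 8.39 and 7.57%. These shares count single windows and the member counts are per gene, so they cannot be compared directly. The gene *Gm9748* overlaps the *Pcdh8* window.

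Striatum and cortex differed in many classic cadherins, and in both directions. This contrast sets striatal spots against the mean of both cortical layers, and it and the contrast between the layers were chosen after the levels had been seen. Of the 40 tested members 13 were higher in striatum, where 23.7% of all genes were, and 16 of 40 were lower, where 22.2% of all genes were. Among type II cadherins 3 were higher and 5 lower, among type I cadherins 2 higher and 1 lower. Of the cell type markers tested, 4 of 6 for endothelium and 5 of 5 for microglia were higher in striatum as well. So were 2 of 8 for oligodendrocyte precursors and 1 of 6 for astrocytes. Of 6 interneuron markers 2 were higher and 2 lower. The part of these cell types in the member values was not tested.

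The type II cadherin *Cdh9*, which takes part in matching synaptic partners, had the largest striatal excess among the tested members. In striatum it stood at 20.4, 22.6, 22.6 and 28.7 CPM in sections 1 to 4, against 11.6, 11.0, 10.2 and 14.7 CPM in deep and 5.29, 6.52, 7.62 and 5.09 CPM in upper cortex. Every striatal value lay above every cortical value, and the log2 difference was 1.56 (SE 0.11, edgeR adjusted p = 2.6e-14). *Cdh8*, another type II cadherin, measured 19.4, 26.5, 26.3 and 22.5 CPM in striatum. In upper cortex it measured 6.81, 14.3, 11.6 and 9.21 CPM and in deep cortex 10.4, 11.7, 7.25 and 8.87 CPM. The groups again did not overlap (log2 difference 1.297, SE 0.12, edgeR adjusted p = 3.5e-11).

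*Cdh13*, a cadherin held by a lipid anchor with no catenin-binding tail, followed the same pattern. It measured 80.1, 74.2, 79.8 and 89.2 CPM in striatum, and at most 61.0 CPM in any cortical sum (log2 difference 1.13, SE 0.09, edgeR adjusted p = 5.5e-13). Smaller or less abundant striatal excesses were found for the type I cadherins *Cdh15* (1.14) and *Cdh4* (0.52), the type II cadherin *Cdh7* (0.70), the delta-1 protocadherin *Pcdh11x* (0.65), the delta-2 protocadherins *Pcdh17* (0.57) and *Pcdh10* (0.22), and *Celsr1* (0.62), all as log2 differences. *Cdh7* exceeded deep cortex only, with means of 9.15 CPM in striatum and 9.04 CPM in upper cortex. *Celsr1* had 10 to 37 UMIs per striatal sum, and its call (edgeR adjusted p = 0.039) was kept in 2 of 11 alternatives and lost without any 1 of the 4 sections. Under scaling by total UMIs the calls of *Cdh4*, *Celsr1*, *Pcdh10* and *Pcdhb20* were lost and the split became 9 higher and 19 lower, a scaling that moved the median of all genes by -0.12.

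In the opposite direction, *Cdh12*, a type II cadherin, had the largest cortical excess among the tested members. It measured 3.78, 4.94, 7.92 and 7.27 CPM in upper and 5.65, 4.95, 2.18 and 3.60 CPM in deep cortex, against 1.35, 1.40, 0.98 and 2.57 CPM in striatum. The log2 difference was -1.61 (SE 0.30, edgeR adjusted p = 3.8e-05), resting on 6 to 18 UMIs per striatal sum, and the ranges of striatum and deep cortex overlapped. The delta protocadherins gave larger counts. *Pcdh7*, a delta-1 protocadherin, measured 42.1, 44.8, 37.1 and 56.7 CPM in striatum, 76.1, 87.1, 77.6 and 101 CPM in deep and 74.1, 101, 99.1 and 123 CPM in upper cortex. All cortical values exceeded all striatal ones (log2 difference -0.91, SE 0.07, edgeR adjusted p = 4.5e-13).

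*Pcdh9*, also delta-1, fell to 36.3, 31.4, 27.6 and 32.1 CPM in striatum from at least 55.2 CPM in each cortical sum (log2 difference -0.89, SE 0.08, edgeR adjusted p = 2.0e-12). *Cdh2*, the N-cadherin gene, whose product holds excitatory synapses together, was lower in striatum at 36.1, 39.6, 34.3 and 32.1 CPM. In deep cortex it stood at 67.8, 62.3, 50.8 and 58.2 CPM and in upper cortex at 52.2, 47.9, 44.2 and 48.5 CPM (log2 difference -0.46, SE 0.07, edgeR adjusted p = 8.6e-07). The other cortical members were *Pcdh8* (-1.04), *Pcdh19* (-0.74), a delta-2 gene linked to epilepsy, *Pcdh1* (-0.71), *Cdh20* (-0.70), *Cdh22* (-0.55), *Cdh6* (-0.53), *Pcdh20* (-0.51), *Cdh10* (-0.51) and *Celsr2* (-0.27). For *Cdh6* the striatal values, 7.29 to 10.9 CPM, lay around the deep cortex mean of 9.88 CPM and below the upper cortex mean of 20.5 CPM. *Cdh11* (0.08, edgeR adjusted p = 0.54) and *Celsr3* (-0.08, edgeR adjusted p = 0.61) did not pass the test.

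Considering whole ranges, 3 of the 40 tested members had every striatal value above every cortical value (*Cdh8*, *Cdh9* and *Cdh13*), which held for 6.48% of all genes tested. Another 6 had every striatal value below every cortical one (*Cdh2*, *Cdh10*, *Pcdh7*, *Pcdh8*, *Pcdh9* and *Pcdh19*), which held for 16.1% of all genes. Both counts were near these shares.

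**Figure D2:**
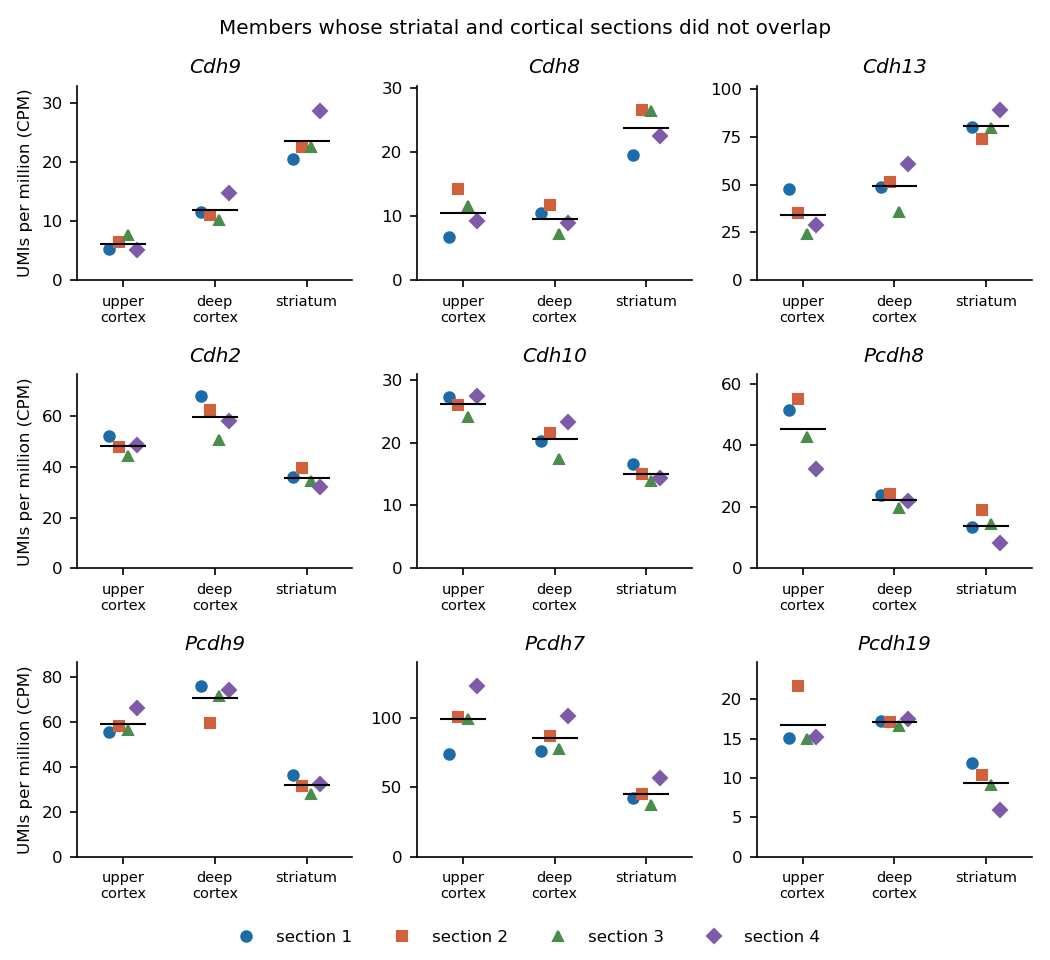
CPM (vertical axes, from 0) of 9 members in upper cortex, deep cortex and striatum spots. Each point is 1 section and each line the mean of 4 sections. *Cdh9*, *Cdh8* and *Cdh13* lie above the cortical range in all 4 striatal sums and the other 6 members below it, with *Cdh9* at 20.4 to 28.7 CPM in striatum.

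**Figure D3:**
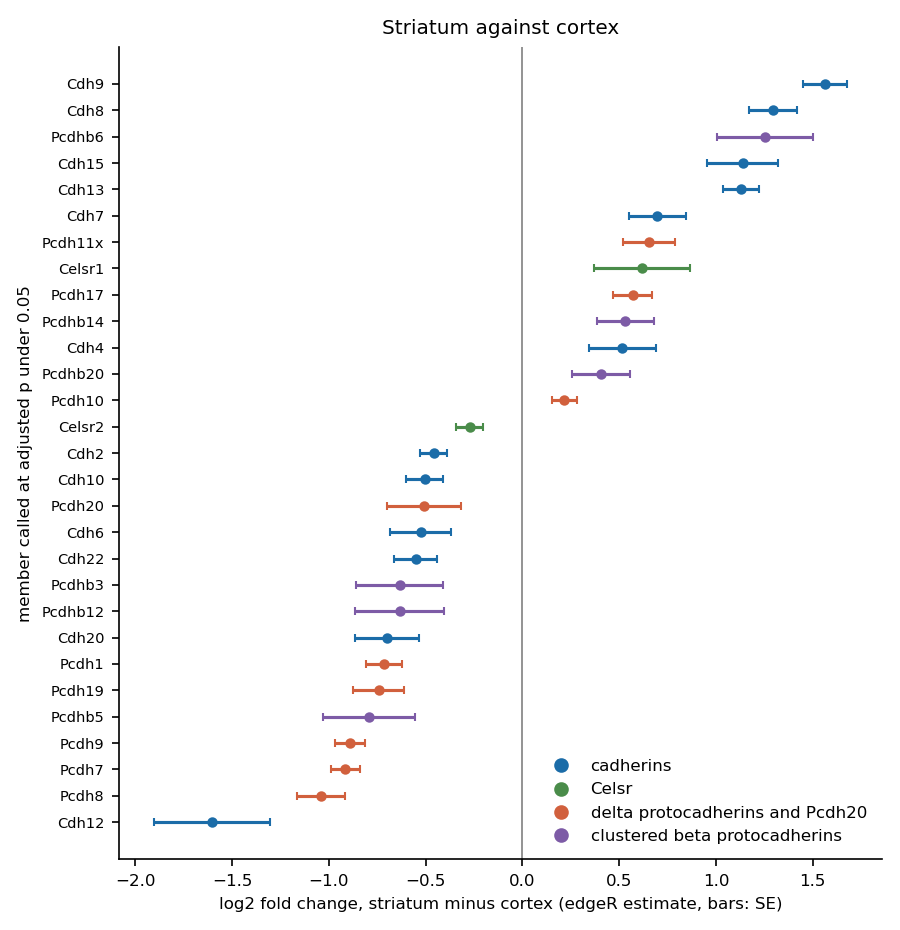
Fitted log2 difference between striatum and the mean of both cortical layers for the 29 members called, with SE as bars and the family as colour. The cadherins spread from -1.61 (*Cdh12*) to 1.56 (*Cdh9*), and of the 9 called genes among the delta protocadherins and *Pcdh20*, 6 are on the cortical side.

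Within the cortex, upper and deep layers differed in 7 of the 40 tested members. In upper layers 4 were higher, where 3.68% of all genes were, and 3 were lower, where 3.30% of all genes were. Of those 7, 4 were type II cadherins. *Cdh6*, which marks subsets of layers and nuclei in the developing forebrain, measured 15.9, 17.4, 18.3 and 30.5 CPM in upper against 6.54, 10.1, 7.61 and 15.2 CPM in deep cortex. The upper value was the higher in each section and the ranges did not overlap (log2 difference 1.04, SE 0.19, edgeR adjusted p = 1.7e-04). *Cdh7* measured 11.3, 11.3, 6.70 and 6.79 CPM in upper and 3.86, 6.07, 2.54 and 3.60 CPM in deep cortex, again with no overlap (1.12, SE 0.22, edgeR adjusted p = 5.6e-04). *Cdh22* measured 33.3, 29.0, 29.3 and 28.1 CPM in upper and 18.4, 19.6, 20.7 and 16.9 CPM in deep cortex (0.64, SE 0.14, edgeR adjusted p = 0.0015).

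The activity-regulated delta-2 protocadherin *Pcdh8* also favoured upper layers, at 51.4, 55.0, 42.7 and 32.5 CPM against 23.8, 24.1, 19.6 and 21.9 CPM in deep layers (1.01, SE 0.14, edgeR adjusted p = 3.1e-06). *Cdh9* had the reverse order, with the values given above (-0.91, SE 0.19, edgeR adjusted p = 8.2e-04). *Cdh13* was lower in upper layers at 47.6, 35.2, 24.1 and 29.1 CPM against 49.0, 51.5, 35.9 and 61.0 CPM in deep layers. It was lower in each section although the ranges overlapped (-0.59, SE 0.13, edgeR adjusted p = 0.0022), and without section 4 the adjusted p was above 0.05. *Cdh2* differed by -0.30 (edgeR adjusted p = 0.018), a call lost without any 1 of sections 1, 2 or 3. *Cdh24* was lower in upper layers in each section, at 0.76, 1.24, 1.52 and 1.94 against 2.68, 2.25, 3.63 and 4.44 CPM, but did not pass the filter on low counts. None of the 13 tested clustered protocadherins was called between the layers by edgeR.

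Over whole ranges, 6 tested members were higher in every upper sum than in any deep sum (*Cdh6*, *Cdh7*, *Cdh10*, *Cdh22*, *Pcdh8* and *Pcdhb14*), which held for 3.40% of all genes. A further 3 were lower in every upper sum (*Cdh9*, *Cdh11* and *Pcdh11x*), which held for 4.93% of all genes.

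**Figure D4:**
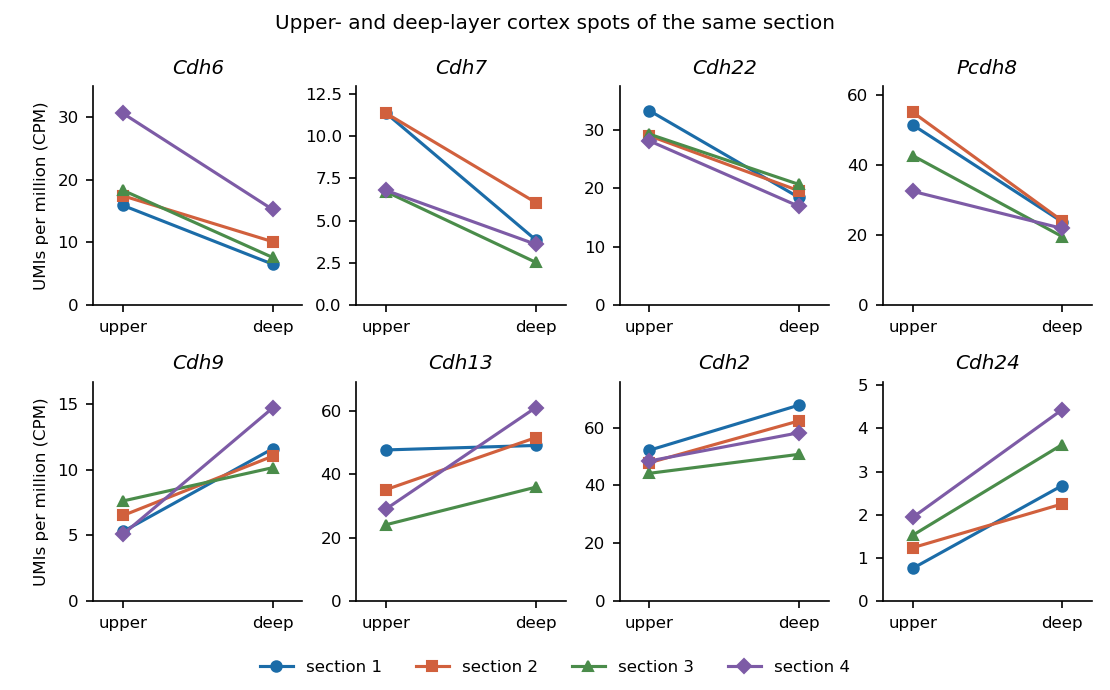
CPM (vertical axes, from 0) in upper and deep cortex spots, with 1 line per section, for the 7 members called between the layers and for *Cdh24*, which was not tested. Every line falls from upper to deep for *Cdh6*, *Cdh7*, *Cdh22* and *Pcdh8*, and rises for *Cdh9*, *Cdh13*, *Cdh2* and *Cdh24*.

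When each region was set against the unweighted mean of the other 5, upper cortex had 16 members higher and 5 lower, against 20.2% and 17.2% of all genes, and 19 higher and 3 lower under scaling by total UMIs. Deep cortex had 14 higher and 2 lower, against 18.1% and 16.3%. Striatum had 14 higher and 6 lower, against 18.8% and 17.7%. In this contrast a member that is scarce in choroid plexus or white matter counts as higher elsewhere. With the choroid plexus spots left out, the counts were 12 higher and 6 lower in upper cortex, 8 and 4 in deep cortex and 14 and 11 in striatum. Against all other spots of the section, deep cortex had 6 higher and 7 lower. Fitted folds of this contrast are not given for the 15 members with no UMI in at least 1 region. Among them *Cdh12* held 0 of 1463279 UMIs in white matter, which allows up to 2.05 CPM, and 0 of 803021 UMIs in choroid plexus spots, which allows up to 3.74 CPM.

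For the type II cadherin *Cdh10* every cortical and every white matter value lay above every striatal value. It measured 27.2, 25.9, 24.1 and 27.4 CPM in upper cortex, 16.6, 14.97, 13.9 and 14.3 CPM in striatum, and 19.5, 36.3, 22.8 and 29.0 CPM in white matter. Those white matter values rest on few UMIs, as all 12 type II cadherins together held 87, 15, 57 and 37 there. Choroid plexus spots held 1 and 0 UMIs of *Cdh10*. In white matter against the other regions it was called higher (log2 difference 1.17, edgeR adjusted p = 0.0047). This call was lost with the choroid plexus spots left out and without section 4. It was also lost with spots near a second marker list left out and against all other spots.

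In *Baiap3*/*Resp18* spots every delta-2 protocadherin was called higher than in the mean of the other regions, *Pcdh10* only with choroid plexus spots among these. Of 40 tested members 12 were higher there, where 12.7% of all genes were, and 1 was lower, where 9.71% of all genes were. With the choroid plexus spots left out, 10 were higher and 2 lower. In the main fit all 5 delta-2 protocadherins and all 3 tested type I cadherins were among the 12, whereas 0 of 4 delta-1 and 0 of 13 tested clustered protocadherins were called by edgeR. *Pcdh8* measured 71.0, 98.2, 51.4 and 83.5 CPM in these spots and at most 55.0 CPM in any upper cortex sum (log2 difference from the other regions 1.96, SE 0.17, edgeR adjusted p = 1.4e-11). *Pcdh19* measured 33.6, 39.6, 42.5 and 33.0 CPM, above each value in every other region, whose highest was 21.7 CPM (1.45, SE 0.20, edgeR adjusted p = 6.1e-07). *Pcdh17* measured 86.1, 74.7, 51.4 and 65.1 CPM, against at most 49.3 CPM elsewhere (1.40, SE 0.16, edgeR adjusted p = 9.1e-09).

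The fourth delta-2 gene, *Pcdh18*, stood at 7.96 ± 4.04 CPM there against 2.40 ± 0.369 to 4.07 ± 0.447 CPM in cortex and striatum. It was highest in these spots in sections 1 and 4, in white matter in section 2 and in deep cortex in section 3. *Pcdh10* was called too (0.31, edgeR adjusted p = 0.014), but against all other spots its difference was -0.035 and the call was lost, as it was without section 1 or 4. The call was also lost with the choroid plexus spots left out. *Pcdh10* averaged 116.7 CPM in *Baiap3*/*Resp18* spots and 117.2 CPM in striatum. The single non-delta member *Pcdh20* stood at 15.5, 19.0, 15.6 and 16.5 CPM (1.05, SE 0.30, edgeR adjusted p = 0.010). Type I cadherins were raised as well: *Cdh15*, known from muscle and cerebellum, at 10.9 ± 2.21 CPM (1.48), *Cdh4*, the retinal cadherin gene, at 17.1 ± 9.84 CPM (1.41), and *Cdh2* at 64.5 ± 8.62 CPM (0.72). *Cdh4* varied between sections, at 22.3, 8.79, 8.94 and 28.4 CPM. It was highest in striatum in section 2 and in upper cortex in section 3. *Cdh8* (0.70), *Cdh13* (0.63) and *Cdh22* (0.62) completed the list. The means of *Cdh8* and *Cdh13* were higher in striatum, at 23.7 and 80.8 CPM, than in these spots, at 17.3 and 72.0 CPM. *Cdh22* averaged 29.9 CPM in upper cortex and 25.1 CPM in these spots. The call of *Cdh8* was lost without section 1 or 4, that of *Cdh22* without section 1 or 2 or the choroid plexus spots, and that of *Pcdh20* without section 2. *Celsr1* was lower (-1.72) from 1 to 3 UMIs per section, a call lost without section 1 or 4. It was also lost with the choroid plexus spots left out and against all other spots.

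White matter spots held few member UMIs, with 87, 15, 57 and 37 for the 12 type II cadherins together in sections 1 to 4. In these spots 4 members were higher, where 12.6% of all genes were, and 5 were lower, where 10.4% of all genes were. With the choroid plexus spots left out, 3 were higher and 8 lower, and against all other spots 3 were higher and 11 lower. *Cdh19*, a type II cadherin known from Schwann cells and their precursors, measured 31.9, 5.19, 43.0 and 32.2 CPM in white matter (18, 1, 17 and 10 UMIs). It ranged from 4.71 to 9.83 CPM in all cortical and striatal sums, so sections 1, 3 and 4 stood above that range and section 2 within it (log2 difference from the other regions 1.69, SE 0.30, edgeR adjusted p = 2.6e-05). *Baiap3*/*Resp18* spots, at 15.1, 11.7, 29.1 and 9.17 CPM, stood above white matter in section 2 and below it in the other sections. Choroid plexus spots, at 11.2 and 27.8 CPM, stood below it in both of their sections. *Pcdh9* measured 90.3, 77.8, 86.0 and 103 CPM in white matter, above every sum of every other region, the highest of which was 76.1 CPM (1.14, SE 0.15, edgeR adjusted p = 2.4e-07). *Cdh20* measured 26.6, 10.4, 17.7 and 19.3 CPM (1.31, SE 0.37, edgeR adjusted p = 0.0074), with section 2 again inside the range of the cortex, and its call was lost without section 1. In these spots all 6 astrocyte markers and all 5 microglia markers tested were higher as well, and 5 of 8 markers of oligodendrocyte precursor cells (OPCs); their part in the member values was not tested.

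Lower in white matter were *Celsr2* at 46.1, 31.1, 37.9 and 48.3 CPM against 92.0 to 120 CPM in cortex (-0.90, SE 0.18, edgeR adjusted p = 2.2e-04), *Celsr3* (-1.10), *Pcdh7* (-0.74), *Cdh2* (-0.68) and *Pcdhb14*. *Pcdhb14* had 1 UMI in section 1 and none in the other sections, and its call was lost without section 1. The calls of *Celsr3* and *Cdh2* were lost without section 1 or section 4, and that of *Celsr3* also without section 3.

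Choroid plexus spots were lower for 5 members and higher for 1, where 10.7% and 14.1% of all genes were called. The polarity cadherin *Celsr1*, which is known from ciliated and other epithelia, measured 14.4 and 22.2 CPM in the choroid plexus spots of sections 1 and 4, from 9 and 4 UMIs, and at most 7.59 CPM in any other sum (log2 difference 3.003, SE 0.55, edgeR adjusted p = 4.8e-05). *Pcdh10* (-1.24), *Pcdh9* (-1.299), *Pcdh8* (-1.62), *Pcdh17* (-1.65) and *Cdh10* (-3.78) were lower. Without section 1 only *Celsr1* and *Pcdh10* were still called, in a fit where choroid plexus was 1 sum of 28 spots assumed to vary like the other regions. *Igf2* and *Dcn*, from the lists of meningeal genes used here, stood at 612 ± 250 and 61.7 ± 30.6 CPM in these spots (SD, n = 2). In the other regions they reached at most 27.7 ± 23.4 and 9.67 ± 2.42 CPM. What cells gave these 2 transcripts, and their part in the member values, was not tested. *Cdh1*, the epithelial cadherin gene, had 1 UMI there.

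Of the clustered protocadherins, the genes of the beta cluster alone reached the members' minimum. Over whole sections the 20 beta genes together reached 84.0, 83.9, 67.6 and 74.7 CPM, and the 10 other protocadherins 381, 396, 365 and 403 CPM. The means were 77.5 ± 7.94 and 386 ± 16.8 CPM, and the beta genes gave 16.7 ± 1.26% of the UMIs of these 30 genes. Counting error alone gave an exact Poisson 95% interval of 70.8 to 78.6 CPM for the beta sum of section 4, the widest of the 4 intervals. The 14 symbols of the alpha cluster held 10 UMIs in all, 10 of them none, and the 21 of the gamma cluster 188 UMIs. Alpha and gamma transcripts end in constant exons shared by all genes of their cluster, and reads near the 3′ end that fit several genes are not assigned to one, so these counts do not measure those clusters, and the total of clustered transcripts is not known from them.

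The regional sums of both groups were described without a test. In striatum the beta sum was 83.6, 92.1, 78.7 and 74.2 CPM, in upper cortex 101, 90.5, 66.7 and 80.7 CPM, and in deep cortex 93.3, 85.3, 70.3 and 71.8 CPM, ranges that overlapped. The other protocadherins stood at 313, 338, 301 and 280 CPM in striatum, below every value in upper cortex (388 to 453 CPM) and deep cortex (395 to 437 CPM). White matter, at 365, 332, 303 and 316 CPM, overlapped striatum, and choroid plexus spots stood lower, at 167 and 178 CPM in sections 1 and 4. Between striatum and cortex it was the sum of the 4 delta-1 genes that lay lower, at 121, 125, 113 and 123 CPM in striatum against 169 to 242 CPM in cortex. *Pcdh11x* went against this sum and was called higher in striatum than in cortex. The sum of the 5 delta-2 genes, at 186, 207, 181 and 151 CPM in striatum and 174 to 211 CPM in cortex, overlapped as the beta sum did. Within it, every striatal value of *Pcdh8* and *Pcdh19* lay below every cortical one. The beta share of the UMIs of the 30 genes was 21.1, 21.4, 20.7 and 21.0% in striatum, 16.7 ± 2.87% in upper and 16.1 ± 1.80% in deep cortex, 13.8 ± 2.54% in white matter and 11.8 ± 1.33% in *Baiap3*/*Resp18* spots. Upper cortex of section 1 (20.7%) was the one cortical value at the striatal level. Choroid plexus spots, at 18.75 and 20% in sections 1 and 4 from 24 and 8 beta UMIs, lay close below the striatal values. The values in *Baiap3*/*Resp18* spots, 13.4, 10.3, 11.2 and 12.3%, came from 186, 38, 23 and 75 beta UMIs. They lay below all cortical and striatal ones, the nearest of which was 13.9% in upper cortex of section 3. White matter shares came from 35, 12, 21 and 11 beta UMIs.

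**Figure D5:**
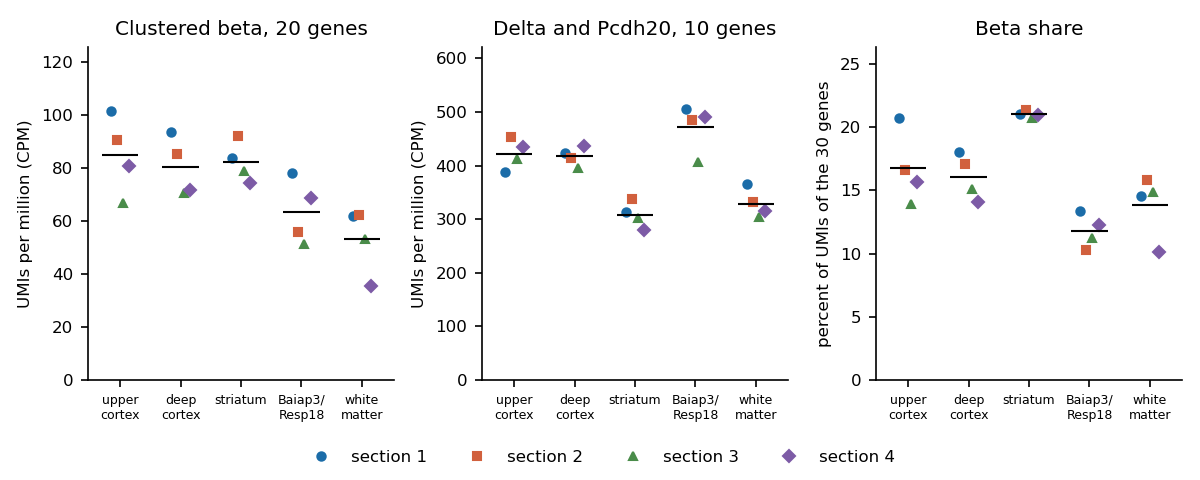
Summed level of the 20 clustered beta protocadherins, of the 10 other protocadherins (both in CPM), and the share of the beta genes in the UMIs of these 30 genes in percent, in 5 kinds of spots. Each point is 1 section and each line the mean of 4. The beta sums of cortex and striatum overlap, while the other protocadherins lie lower in striatum, at 280 to 338 CPM, than in cortex. For the latter, white matter overlaps striatum. The striatal share lies at 20.7 to 21.4%.

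The 20 beta genes lie side by side within 221 kb of chromosome 18 (37300799 to 37521419). Of the 13 tested, 3 were higher and 3 lower in striatum than in cortex, where 23.7% and 22.2% of all genes were. Both counts lie near those shares. *Pcdhb6* measured 5.54, 7.37, 3.27 and 4.28 CPM in striatum and 0.55 to 3.37 CPM in the cortical sums, higher in striatum within each section (log2 difference 1.25, SE 0.25, edgeR adjusted p = 6.1e-05). *Pcdhb14* (0.53) and *Pcdhb20* (0.40) were higher in striatum too. *Pcdhb5* measured 2.95, 2.40, 1.31 and 2.35 CPM in striatum against 5.004 ± 1.34 CPM in upper and 3.63 ± 0.99 CPM in deep cortex (-0.79, SE 0.24, edgeR adjusted p = 0.0064), and *Pcdhb12* and *Pcdhb3* differed by -0.63 each. Of the 6 calls, those of *Pcdhb6* and *Pcdhb5* were kept in every alternative tried.

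Of the other beta genes with the most UMIs, *Pcdhb17* was close to even at 9.09 ± 2.08 CPM in upper cortex, 10.7 ± 1.13 CPM in deep cortex and 10.5 ± 1.195 CPM in striatum. *Pcdhb9* measured 11.2 ± 3.07 CPM in deep cortex and 7.66 ± 1.27 CPM in striatum (-0.32, edgeR adjusted p = 0.084). *Pcdhb22*, at 3.52 ± 0.66 CPM, was lower in striatum than in the mean of the other regions (-0.63, edgeR adjusted p = 0.031), a call kept in 5 of 12 alternatives and lost without section 1, 3 or 4. *Pcdhb7* was not called. *Pcdhb13* held 0 UMIs in white matter and in choroid plexus, and 4.04 ± 0.86 CPM in striatum. The remaining clustered members, *Pcdhb4*, *Pcdhb8*, *Pcdhb10*, *Pcdhb11*, *Pcdhb15*, *Pcdhb16*, *Pcdhb18*, *Pcdhb19* and *Pcdhb21*, held 55 to 338 UMIs each and were either not tested or called in no region by edgeR. These genes are similar in sequence, so reads shared between them could have been lost or split.

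Neighbouring type II cadherin genes also differed in the region of highest level. *Cdh6*, *Cdh9*, *Cdh10*, *Cdh12* and *Cdh18* follow each other within 10.4 Mb of chromosome 15 (13028699 to 23477491). *Cdh6*, *Cdh10* and *Cdh12* were highest in upper cortex or white matter, *Cdh9* in striatum, and *Cdh18*, with 77 UMIs, was not tested. On chromosome 1, *Cdh20*, *Cdh7* and *Cdh19* lie within 6.21 Mb (104768340 to 110977601). *Cdh20* and *Cdh19* were called higher in white matter, where *Cdh7* averaged 2.34 ± 3.60 CPM against 9.15 ± 1.98 CPM in striatum. Coordinates are those of RefSeq genes in build GRCm38.p6.

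Between whole sections the highest level of a member was 1.11 to 2.54 times its lowest (median 1.43), and 20 of 51 members exceeded 1.5 times. The classic cadherins together stood at 205, 211, 195 and 209 CPM in sections 1 to 4. *Cdh6* varied more, at 8.05, 10.9, 9.95 and 18.3 CPM, with the highest value in section 4. Section 4 was also highest for it within upper cortex, deep cortex and striatum. *Pcdh7* was highest in section 4 as well, at 54.9, 69.3, 62.4 and 88.9 CPM. *Pcdh17* was lowest there, at 41.2, 41.5, 36.1 and 28.9 CPM, and within striatum at 36.8, 49.3, 47.6 and 20.8 CPM. *Pcdhb12* measured 5.11, 4.81, 2.27 and 2.80 CPM and *Cdh15* 6.13, 7.76, 5.41 and 4.21 CPM. These differences between single sections have no replicate. The mix of regions also differed. Upper cortex gave 64, 387, 234 and 233 of the 1537, 2358, 2294 and 1431 spots used in sections 1 to 4. *Baiap3*/*Resp18* spots numbered 151, 39, 50 and 89. The part of this mix in the whole-section values was not tested.

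The study asked about areas dense in OPCs. In the top 10% of spots of each section by 8 OPC markers, 48 members were tested against the other spots, 3 were higher, where 2.78% of all genes were, and 1 was lower, where 3.10% of all genes were. *Cdh13* measured 80.6, 75.8, 57.3 and 80.8 CPM in these spots and 65.5, 58.6, 53.2 and 57.0 CPM in the others, higher in each section (log2 difference 0.33, SE 0.07, edgeR adjusted p = 0.0039). Its call was kept in 8 of 12 alternatives and lost without section 2 and in the top 5% of spots, among others. *Pcdh7* measured 48.8, 55.4, 51.3 and 67.9 CPM against 55.5, 70.6, 63.5 and 91.0 CPM, lower in each section (-0.33, SE 0.07, edgeR adjusted p = 0.0034). The *Pcdh7* call was kept in 9 of 12 alternatives and lost with DESeq2, with *Pdgfra* alone and without section as a block. *Cdh24* (1.27, edgeR adjusted p = 0.014) and *Pcdhb10* (1.15, edgeR adjusted p = 0.029) rested on 4 to 15 UMIs per section in the OPC-marker-high spots. The call of *Cdh24* was lost without section 1 or 3, and that of *Pcdhb10* without section 1, 2 or 3. Regions moved with this split: upper cortex made up 3.25, 5.93, 5.68 and 4.90% of the OPC-marker-high spots and 4.27, 17.6, 10.7 and 17.5% of the others. White matter made up 11.0, 5.93, 8.73 and 8.39% against 3.98, 2.17, 4.31 and 4.50%, and 2 of 6 astrocyte markers were higher by edgeR. The part of these in the member values was not tested. With *Pdgfra* as the sole marker, no member was called by edgeR, with 1 at an unadjusted p under 0.05.

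Partners of the members were read from lists chosen with earlier results known. Across all genes tested in the contrast of striatum with cortex 23.7% were higher and 22.2% lower, and the counts in the lists are to be read against these shares. Of 8 tested catenins and related proteins, which tie cadherins to the cytoskeleton, 2 were higher and 2 lower in striatum than in cortex. *Ctnna1*, the epithelial alpha-catenin gene, was higher (log2 difference 0.67, edgeR adjusted p = 6.7e-09) and *Ctnna2*, its neuronal counterpart, lower (-0.34, edgeR adjusted p = 0.0016). Of 12 tested planar polarity genes and giant cadherins, which act with the Celsr proteins, 2 were higher and 5 lower, among the latter *Prickle1* (-1.08, edgeR adjusted p = 2.5e-12). Of 9 calsyntenins and protocadherin partners, 1 was higher and 3 lower, the 3 being the calsyntenin genes *Clstn1* (-0.81), *Clstn2* (-1.14) and *Clstn3* (-0.52). Calsyntenins are cadherin-repeat proteins of the synapse. The median log2 difference was -0.11 for the catenin list, -0.08 for the polarity list, -0.11 for the calsyntenin list and 0.00 for the members, against 0.04 for all genes tested.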

How the data were processed

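Spatial transcriptomes of 4 fresh frozen *Nf1*+/- mouse brain sections were analysed as UMI counts per gene and spot. Per the file headers and the submitters' processing notes, the authors made these deposited counts with Space Ranger 1.3.1 on genome build mm10, without normalisation or pooling of sections. Spot positions were not used here, and no column was left out (0). Members and gene lists were chosen with earlier results of these data known.

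Spots with at least 500 UMIs were kept (17, 1, 26 and 4 spots left out of sections 1 to 4), leaving 23472790, 37001945, 22012734 and 19261103 UMIs. For each of 14 region marker lists, UMIs of the list per 10000 UMIs were divided by the mean of the top 1% of spots. A spot took its highest list if this reached 0.25 with at least 5 UMIs of at least 2 markers. Regions with at least 20 spots in at least 2 sections were kept. UMIs were summed per section and region and tested with the edgeR 4.0.16 quasi-likelihood test in R 4.3.3 (TMM scaling, filterByExpr, Benjamini-Hochberg over all genes tested, adjusted p under 0.05), each region against the unweighted mean of the others. Section was a block because sums of the same section share a library. Residuals of 8169 genes correlated within a section with a median r of 0.205 (0.0497 to 0.574, 40 pairs) and between sections with -0.0744 (-0.292 to 0.101, 120 pairs). The residuals were deviations from each region's mean over its sections. This centring ties the values between sections to those within, so they are not a separate comparison. OPC-marker-high spots were tested in the same way against the other spots. Exact Poisson 95% intervals and the floor of 3 counts cover counting error only. By rule, all classic cadherins and other members outside the clusters could be named, and of the beta cluster the 8 genes with the most UMIs and any called. The code was tested on simulated data. DESeq2 1.42.0, no block, other spot thresholds, scaling by total UMIs, no low-count filter and leaving out each section were alternatives. Promoter windows came from RefSeq (GRCm38.p6).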

Additional observations from a re-analysis of the deposited data

Results flagged for a closer look

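Values of single members and of member groups were compared over the 4 sections for a section far from the others. Of 105 such comparisons 4 stood out by Dixon's criterion, where 5.25 would by chance at 1 in 20. *Cdh11*, a type II cadherin, stood at 24.7 CPM in whole section 4, with the nearest section at 28.0 CPM. *Pcdhb11* stood at 3.16 CPM in section 2, with the nearest section at 2.49 CPM. The classic cadherins together stood at 176 CPM in the deep cortex of section 3, with the nearest section at 212 CPM. The *Celsr* genes together stood at 126 CPM in the striatum of section 2, with the nearest section at 101 CPM.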

How the results depend on the processing

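Of 125 called values of single members, 59 kept direction and call in every alternative tried. Over 1547 comparisons 1277 kept both, 262 lost the call and 8 changed sign. In the contrast of striatum with cortex 19 of 29 calls were kept throughout, and in that between cortical layers 5 of 7. Sign changed against all other spots for *Pcdhb13* in upper (-0.29) and deep cortex (-0.13), *Pcdh10* in deep cortex (-0.045) and *Baiap3*/*Resp18* spots (-0.035), *Cdh9* in deep cortex (-0.24) and *Celsr2* in striatum (-0.082). It changed without section 1 for *Pcdh8* (0.80) and *Pcdh19* (0.94) in striatum against the other regions, whose values with 1 section left out ranged from -0.92 to 0.80 and from -0.64 to 0.94. None of these 8 values passed the test. With spots near a second list left out, 9 members were called in upper and 8 in deep cortex, against 21 and 16. White matter had 14 calls against all other spots, in place of 9, and choroid plexus 11 under scaling by total UMIs, in place of 6. The OPC contrast had 4 calls, but 1 with DESeq2, 1 in the top 5% of spots and 0 with *Pdgfra* alone. Without the replicate block, pairing sums of the same section, the OPC contrast had 0 calls by edgeR, with 3 at an unadjusted p under 0.05, striatum minus cortex had 24 and the layers 6. No other count moved by over 1.5 times without the block. Leaving out 1 section gave 13 to 16 calls in upper cortex (13 without section 4), 2 to 6 in choroid plexus (2 without section 1), 19 to 27 between striatum and cortex (19 without section 2) and 2 to 4 in the OPC contrast (2 without section 2 or 3). The cause was not tested. Choroid plexus could not be fitted with mixed spots left out. Leaving out choroid plexus spots was chosen after seeing the data. White matter and choroid plexus sums held 1463279 and 803021 UMIs in all, which allow up to 2.05 and 3.74 CPM for a member with none.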
